A study of Mus musculus with 16 samples.

Results

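The transcription factor genes Irf4, Irf8, Spib and Ets1 were followed in mouse pre-B cells over the first hours of pre-B cell receptor (preBCR) signalling. These 4 genes were taken by symbol from 38918 features in the 3 deposited tables. The cells came from Blnk-/- mice, which lack the adaptor protein BLNK, and all 4 conditions carried a retroviral BLNK-ERt2 fusion whose activity depends on tamoxifen. The conditions were an unstimulated control and stimulation for 0.5, 1.5 and 5 h. The control carried the same deletion and the same construct, and whether it received a vehicle is not stated. The age of the mice, the number of mice and whether the cells were 1 clone are not stated either. The 16 samples are 4 sequencing lanes of each of 4 libraries, 1 library per condition, so lanes are not replicates of a condition and no p-value is given between conditions.

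IRF4 and IRF8 belong to the interferon regulatory factor (IRF) family and act at the step from the pre-B cell to the B cell, where light chain genes begin to rearrange. Alone they bind DNA weakly. At composite elements they bind beside an Ets-family protein of the PU.1 subgroup, either PU.1 itself (the product of Spi1) or its close relative Spi-B (the product of Spib). Ets1 is another Ets-family protein of lymphocytes and is known for holding back plasma cell differentiation.

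In outline, Irf4 was higher than in control at every time, Spib was lower at every time in exon reads, Irf8 stood apart from control at 5 h, and Ets1 was a little higher at 5 h. Levels are given as CPM, the exon reads of a gene per 1000000 exon reads of the library. A gene was called where the larger of its levels was no less than 5 CPM and its ratio, with 1 CPM added to each level, was 2-fold or more. At 0.5 h, 0 of the 4 genes were called, against 0.305% of all 9516 genes tested. At 1.5 h 1 of 4 was called (Irf4, higher), against 0.852% of 9512 genes. At 5 h 2 of 4 were called (Irf4 higher and Spib lower), against 0.735% of 9520 genes. The 4 genes were chosen with earlier results of these data known, so these shares are a background for size and support nothing about the choice.

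The promoters of Irf4 and Spib are printed because these are the called genes and they moved in opposite directions. Each line gives the RefSeq promoter on GRCm38.p6, from 250 bases before the start of the gene to 50 bases after it, 5′ to 3′ on the strand of the gene. Capitals mark the core GGAA of Ets binding sites, read on either strand. The Irf4 promoter is at chr13:30748983-30749282 on the plus strand and the Spib promoter at chr7:44532022-44532321 on the minus strand.
Irf4: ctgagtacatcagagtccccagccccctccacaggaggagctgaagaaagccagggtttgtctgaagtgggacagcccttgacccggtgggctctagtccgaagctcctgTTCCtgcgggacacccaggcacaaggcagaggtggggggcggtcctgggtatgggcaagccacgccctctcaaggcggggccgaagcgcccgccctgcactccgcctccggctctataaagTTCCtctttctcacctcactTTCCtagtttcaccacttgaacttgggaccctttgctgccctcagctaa
Spib: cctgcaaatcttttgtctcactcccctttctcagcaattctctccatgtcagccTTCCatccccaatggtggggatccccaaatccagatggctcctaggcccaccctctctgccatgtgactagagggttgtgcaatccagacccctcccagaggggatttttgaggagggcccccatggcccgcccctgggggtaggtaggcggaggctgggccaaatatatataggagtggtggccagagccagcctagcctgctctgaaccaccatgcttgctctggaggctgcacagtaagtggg

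The Irf4 promoter held 3 matches to GGAA and the Spib promoter 1, and 96.0% of the 32544 distinct promoters in the RefSeq table held at least 1, with a median of 3. TATAAA was found in Irf4 at position -26, the start base being 0, and not in Spib, against 13.6% of promoters. Only these exact letters were searched, and the Spib sequence holds the similar run TATATATA before its start. The NF-kB consensus had 2 matches in Spib and 0 in Irf4, against 8.49% of promoters. The interferon-response element (3.45% of promoters), the Ets-IRF composite element (2.73%) and the AP-1 site TGANTCA (7.79%) had 0 matches in both. All 6 motifs were searched on both strands, and the composite element holds the GGAA of the Ets core. These are matches of letters and not measured sites. Promoters of 3 of the 4 genes were matched in the table.

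Irf4 (ENSMUSG00000021356.10, chromosome 13, 30749226 to 30766927, plus strand, mm10) encodes the factor that takes part in light chain rearrangement and later in plasma cell formation. Its 4 control lanes stood at 145, 134, 147 and 144 CPM. At 0.5 h they stood at 238, 247, 238 and 234 CPM. At 1.5 h they stood at 454, 438, 441 and 448 CPM, the high point of the series. At 5 h they stood at 353, 355, 342 and 338 CPM. The lanes of the 4 conditions did not overlap, so the order from high to low was 1.5 h, 5 h, 0.5 h and control.

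Summed over lanes, Irf4 went from 142 CPM (4920 reads) to 239 CPM at 0.5 h, which is 1.68-fold higher (95% interval 1.62 to 1.74, exact Clopper-Pearson, for counting error only). This fold ranked 46 of 9516 genes and did not reach the rule. At 1.5 h the ratio ranked 8 of 9512 genes and at 5 h 13 of 9520. Between 0.5 and 1.5 h Irf4 was a further 1.86-fold higher (1.81 to 1.91), and between 1.5 and 5 h it was 1.28-fold lower (1.25 to 1.32). All exon reads of Irf4 were uniquely placed, and no annotated gene overlapped it. Reads across its exon-exon junctions, which come from spliced RNA, were 1.77 times the control at 0.5 h (1.58 to 2.0), 3.29 times at 1.5 h (2.95 to 3.66) and 2.62 times at 5 h (2.34 to 2.93).

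**Figure D1:**
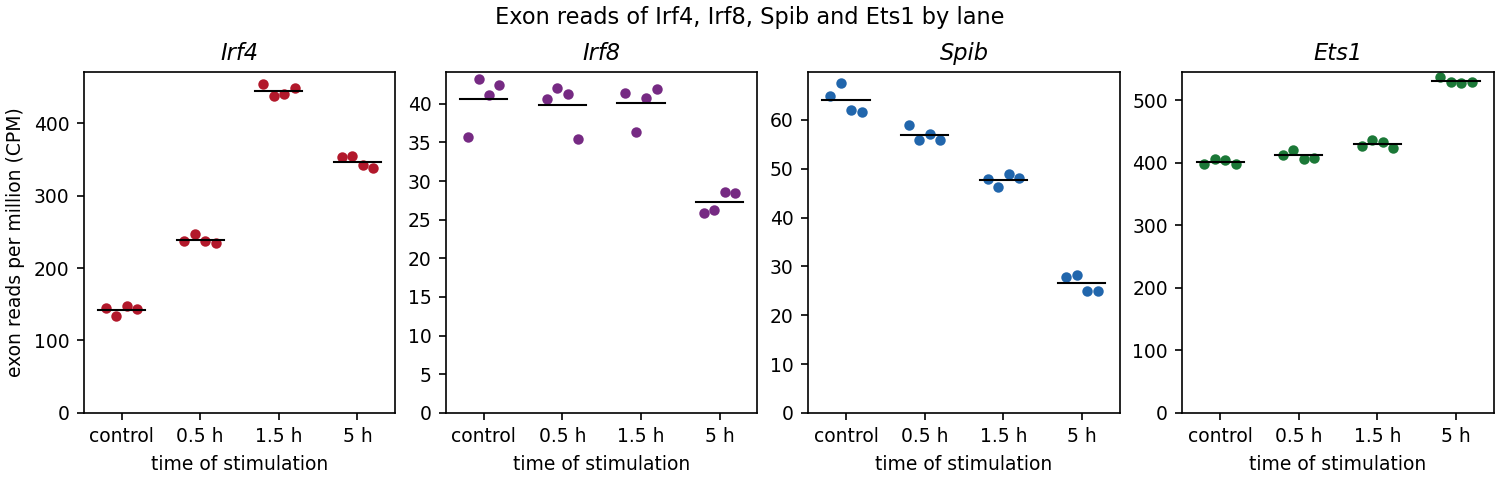
Exon reads per 1000000 (CPM, linear axes from 0) of Irf4, Irf8, Spib and Ets1 in control cells and after 0.5, 1.5 and 5 h of stimulation; each point is 1 of 4 lanes of the same library and the bar is the value over all lanes. Irf4 is highest at 1.5 h (438 to 454 CPM), Spib is lowest at 5 h (24.9 to 28.2 CPM), Irf8 is apart from the other conditions at 5 h, and Ets1 is highest at 5 h (528 to 538 CPM).

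Reads of Irf4 outside its exons were higher earlier than its exon reads. Such reads, counted within the gene but not in an exon, can come from the introns of RNA that is not yet spliced. Irf4 had 365, 1604, 1630 and 960 of them in control and at the 3 times in turn. In CPM, on the same exon read totals, the lanes ran from 9.47 to 11.7 in control, from 45.8 to 49.7 at 0.5 h, from 47.2 to 53.1 at 1.5 h and from 29.6 to 32.9 at 5 h. Each stimulated library lay above control, and the lanes of 0.5 and 1.5 h overlapped.

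At 0.5 h the reads outside exons of Irf4 were 4.48-fold above control (4.0 to 5.03), against 1.68-fold for its exon reads, and the intervals do not overlap. This ranked 2 of 6919 genes tested for reads outside exons, of which 0.347% were called higher. At 1.5 h they were 4.73-fold above control (4.22 to 5.31), which ranked 1 of 7050 genes, with 2.11% called higher. At 5 h they were 2.95-fold above control (2.62 to 3.34), which ranked 4 of 7049 genes, with 0.482% called higher. From 0.5 to 1.5 h the reads outside exons differed by 1.05-fold (0.984 to 1.13), while exon reads were 1.86-fold higher. From 1.5 to 5 h the reads outside exons were 1.60-fold lower (1.48 to 1.73), more than the 1.28-fold of exon reads.

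The share of Irf4 reads that lay outside exons was 6.91% (6.24 to 7.62) in control, 16.5% (15.8 to 17.3) at 0.5 h, 10.1% (9.63 to 10.6) at 1.5 h and 8.26% (7.76 to 8.77) at 5 h. Over all genes this share was 15.9, 15.8, 16.4 and 17.2% in the same order. The share for Irf4 was thus highest at 0.5 h, while the share over all genes hardly differed between control and 0.5 h. The share over all genes is not one of introns alone. Of 6536286 reads outside exons in control, 296765 were counted in Gm20388, a feature that spans other genes, Irf8 among them. Reads across an intron-exon border of Irf4 were few, at 15, 51, 63 and 28, and gave ratios to control of 3.47 (1.92 to 6.64), 4.44 (2.50 to 8.41) and 2.10 (1.08 to 4.22).

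**Figure D2:**
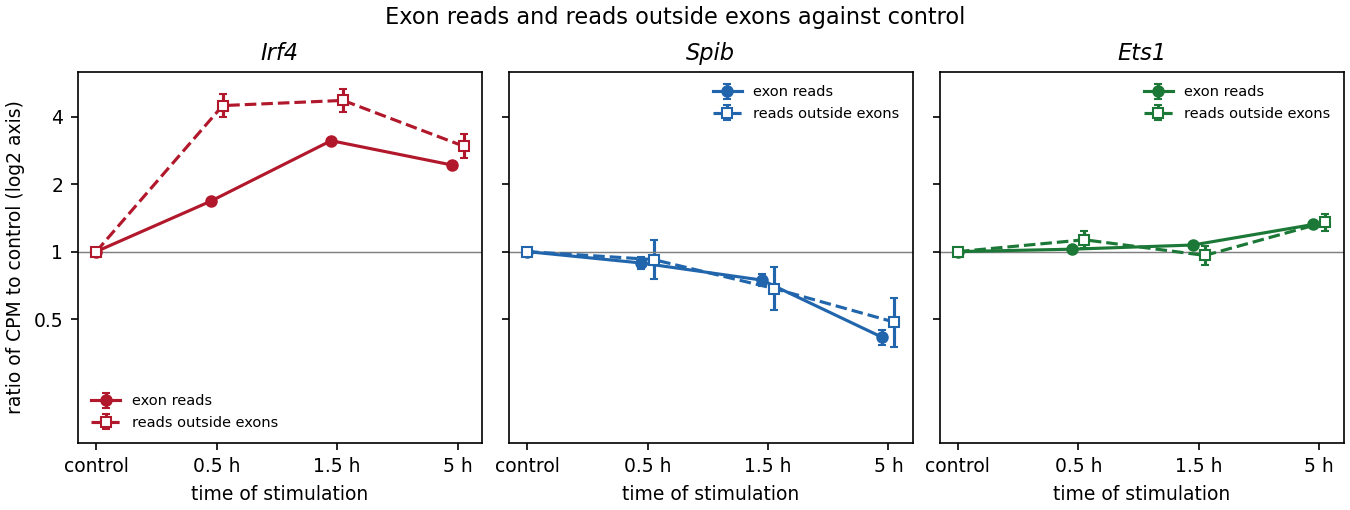
Ratio of CPM to control on a log2 axis for exon reads (filled circles, solid lines) and reads outside exons (open squares, dashed lines) of Irf4, Spib and Ets1; bars are exact 95% intervals for counting error and control is 1 by construction. For Irf4 the reads outside exons are 4.48-fold above control at 0.5 h while exon reads are 1.68-fold above it. For Spib the values of both kinds of read lie below control at each time, with wide intervals for the reads outside exons.

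Spib (ENSMUSG00000008193.13, chromosome 7, 44525995 to 44532071, minus strand) encodes Spi-B, which binds the same Ets sites as PU.1. In the control library its lanes stood at 64.9, 67.6, 61.9 and 61.6 CPM. At 0.5 h they stood at 58.9, 55.9, 57.0 and 55.8 CPM. At 1.5 h they stood at 47.9, 46.2, 48.8 and 48.1 CPM, and at 5 h at 27.9, 28.2, 24.9 and 25.0 CPM. Lanes of the 4 conditions did not overlap, and each later time lay below the one before it.

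Summed over lanes, Spib went from 64.0 CPM in control to 56.9 CPM at 0.5 h, 1.12-fold lower (1.06 to 1.20), and to 47.7 CPM at 1.5 h, 1.34-fold lower (1.26 to 1.43). Neither ratio met the rule. At 5 h it stood at 26.5 CPM and was called lower, 14th from the bottom of 9520 genes, of which 0.399% were called lower. Most of the difference lay in the last interval, with 5 h below 1.5 h by 1.8-fold (1.65 to 1.96). Spib at 5 h was also called lower against 0.5 h, at 2.15-fold (1.98 to 2.33), where 0.651% of 9526 genes were called lower.

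Reads of Spib outside exons numbered 218, 197, 141 and 94. At 0.5 h they were 1.09-fold below control (0.891 to 1.32), at 1.5 h 1.46-fold below it (1.18 to 1.82), and at 5 h 2.06-fold below it (1.61 to 2.66). The ratio at 5 h was not called (log2 -0.85). These intervals overlapped those of the exon reads at each time, unlike for Irf4. They rest on fewer reads than those of Irf4 and are wider, so the overlap does not show that both kinds of read moved alike. The share of Spib reads outside exons was between 8.30 and 10.3%. Reads across exon-exon junctions were 132, 138, 93 and 52, and at 5 h they were 2.26-fold below control. At 0.5 h they were 1.07 times the control (0.834 to 1.36), so the direction at 0.5 h turned in these reads, with an interval that includes 1. At least 99.5% of exon reads of Spib were uniquely placed in each library.

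Ets1 (ENSMUSG00000032035.15, chromosome 9, 32636221 to 32757820, plus strand) encodes a factor that binds Ets sites without needing an IRF partner. Its lanes stood at 397, 407, 405 and 398 CPM in control and at 413, 420, 406 and 408 CPM at 0.5 h. They stood at 426, 437, 433 and 423 CPM at 1.5 h and at 538, 529, 528 and 529 CPM at 5 h. Lanes of control and 0.5 h overlapped, while 1.5 h and 5 h each lay above all earlier lanes.

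Ets1 at 5 h was 1.32-fold above control (1.29 to 1.35) and was not called. This ratio ranked 627 of 9520 genes. Its level was 1.03 times that of control at 0.5 h (1.0 to 1.05) and 1.07 times at 1.5 h (1.05 to 1.10). Reads of Ets1 outside exons numbered 950, 1052, 863 and 1145, and at 5 h they were 1.35-fold above control (1.24 to 1.48). At 1.5 h they were 1.04-fold below control, with an interval that includes 1 (0.948 to 1.14). The antisense gene Gm27240 overlaps Ets1 in GENCODE, and the strand of counting is not stated, so reads of the pair cannot be told apart.

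Irf8 (ENSMUSG00000041515.10, chromosome 8, 120736358 to 120756694, plus strand) encodes the relative of IRF4 that shares many of its sites in B cell precursors and also directs dendritic and myeloid cells. In the control library its lanes stood at 35.7, 43.2, 41.1 and 42.4 CPM. They stood at 40.7, 42.1, 41.3 and 35.4 CPM at 0.5 h and at 41.4, 36.3, 40.7 and 42.0 CPM at 1.5 h. At 5 h they stood at 25.8, 26.2, 28.6 and 28.4 CPM. Lanes of control, 0.5 h and 1.5 h overlapped, and all lanes of 5 h lay below them.

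Summed over lanes, Irf8 was at 40.6, 39.8, 40.1 and 27.3 CPM. Against control the ratio was 0.981 (0.910 to 1.06) at 0.5 h and 0.987 (0.915 to 1.07) at 1.5 h, so that a difference of more than 1.10-fold in the lower direction lies outside both intervals. At 5 h Irf8 was 1.49-fold below control (1.37 to 1.62) and was not called.

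Irf8 was counted in another way than the other 3 genes. All 4480 of its unique exon reads over the 4 libraries lay across exon-exon junctions, and its median coverage was 0 in every lane. It had 0 unique reads outside exons. In the other 3 genes between 5.98 and 9.84% of unique exon reads lay on junctions in a library. Irf8 lies wholly inside the feature Gm20388 (chromosome 8, 119910841 to 124345722), a gene model of 4.43 Mb with 3953 bases of exon. Gm20388 held 0 unique exon reads but between 248484 and 296765 reads outside its exons in each library.

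This pattern extended to the other genes inside that feature. Of 10638 genes with at least 100 unique exon reads, 218 lay wholly inside another feature, and in 218 of these 218 at least 99% of unique exon reads were on junctions. Of the 10420 genes not inside another feature, 36 had such a share, and the median over genes away from this region was 19.4%. Around Irf8, 44 consecutive genes showed it, from 120081095 to 124345724, and 43 of them lay wholly inside Gm20388. In such genes the unique part of the CPM therefore counts junction reads, and the reads outside exons of Irf8 (14, 26, 18 and 10 in total) cannot be read as those of the other 3 genes.

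**Figure D3:**
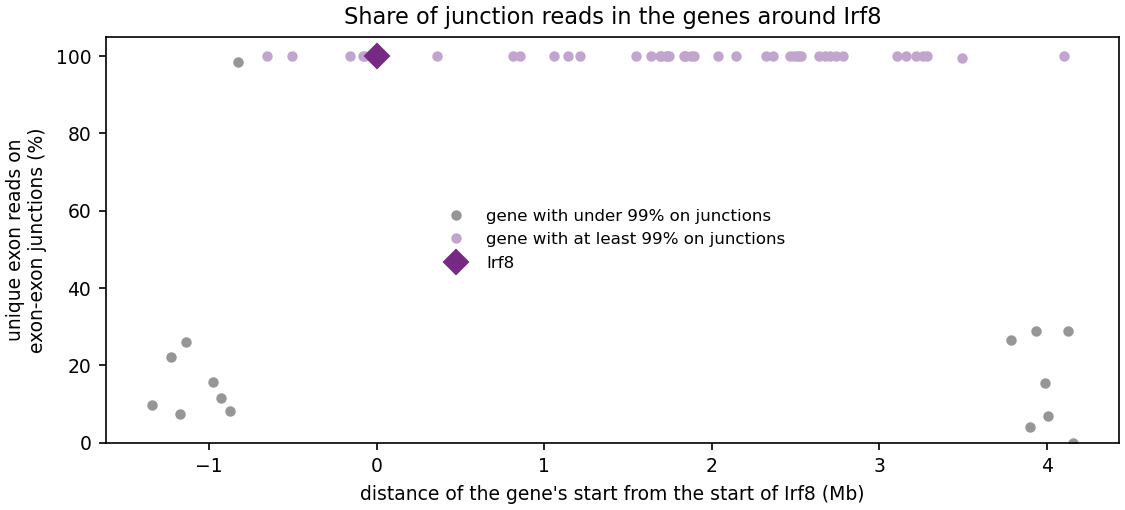
Percent of unique exon reads on exon-exon junctions, over the 4 libraries, for each gene with at least 100 such reads near Irf8, against the distance of its start from the start of Irf8 in Mb (diamond at 0). Irf8 and the genes in its segment are at or near 100%, while most genes on either side of it are far below that.

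The 38 other genes of this segment that were tested had a median log2 ratio of -0.22 at 5 h, with 26 below 0 and 12 above, against 0.0026 over all genes tested. In 181 genes elsewhere with the same share of junction reads the median was -0.049. Irf8 stood at -0.56, and 5 of the 38 were lower. These were Tubb3, a tubulin gene and the 1 called (-1.09), Mvd of the sterol pathway (-0.92), Banp (-0.67), Cbfa2t3, a corepressor gene (-0.66), and Gins2 of the replication machinery (-0.56), named after their values were seen. The call of Tubb3 was lost in total gene reads (-1.07, under the floor of 5 CPM), and also with 5 CPM as the pseudocount (-0.59). At 0.5 and 1.5 h the segment had medians of 0.0030 and -0.088. What part the counting has in the lower value of Irf8 at 5 h was not tested.

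Levels of the 4 genes were set side by side per length of exon, which cannot be done for Irf8 in the same way. In reads per kilobase of exon per 1000000 exon reads, Ets1 stood at 47.4 in control, Irf4 at 30.2 and Spib at 22.5. At 1.5 h Irf4 stood at 94.4, above Ets1 at 50.7 and Spib at 16.8. At 5 h the values were 73.6 for Irf4, 62.6 for Ets1 and 9.33 for Spib. By this level Irf4 was thus below Ets1 in control and above it at 0.5, 1.5 and 5 h.

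A scale that includes Irf8 is unique junction reads per 1000000 exon reads per intron of the first listed transcript. On it Irf8 stood at 4.67 in control, Ets1 at 4.18, Irf4 at 1.63 and Spib at 0.764. At 5 h Ets1 stood at 5.74, Irf4 at 4.27, Irf8 at 3.16 and Spib at 0.338. Irf8 was above Irf4 in control and below it at 5 h on this scale. At 1.5 h Irf4 (5.36) was again above Ets1 (4.69). At 0.5 h Ets1 (4.83) was above Irf4 (2.89), and at 5 h Ets1 was above Irf4 too. The order of these genes at 0.5 and 5 h thus depends on the scale. The value for Irf8 per kilobase, 5.75 in control, rests on junction reads for all of its unique part (92.1% of its exon reads) and was not compared.

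Genes with the time course most like each of the 4 were found by the distance between the 3 log2 ratios to control, among 7421 genes with at least 20 CPM in some library. For Irf4 the nearest were Hivep2, Rilpl2, Ndufaf4, Irs1 and Zfp771, and 0 genes lay within 0.25. Hivep2, which encodes a zinc finger protein and was nearest at 0.473, went from 119 to 146, 358 and 259 CPM. It thus had the same order of times as Irf4, with a smaller ratio at 0.5 h (log2 0.30 against 0.74). For Spib the nearest were Padi2, Zcchc24, Trib3, Kif17 and Gfra2, with 10 genes within 0.25, and 11.9% of the reads of Padi2 were uniquely placed. For Irf8 the nearest were Crip1, Stx1a, Trafd1, Trp53i11 and Cacnb1, with 224 genes within 0.25. For Ets1 they were Tcof1, Rcc2, Arap2, Nek7 and Nup37, with 904 genes within 0.25.

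Among the other IRF genes 5 of 7 were tested and 0 were called at any time. Irf1, an activator of interferon-response genes, went from 53.3 to 45.2, 33.2 and 35.4 CPM, log2 ratios of -0.67 at 1.5 h and -0.58 at 5 h. Irf5, which acts in Toll-like receptor signalling, went from 43.8 to 31.2 CPM at 5 h (-0.48). Irf9, a subunit of the interferon-activated complex ISGF3, was at -0.21 at 5 h. Irf2, a counterpart of Irf1, was at 132 CPM in control and 175 CPM at 5 h (0.41). The list median at 5 h was -0.21.

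Among the other Ets genes 15 of 24 were tested and 1 was called, at 1.5 h. Erf, which encodes an Ets-family repressor, went from 30.7 to 45.5 CPM at 0.5 h and to 66.0 CPM at 1.5 h (log2 1.08), and was at 29.7 CPM at 5 h. With a pseudocount of 5 CPM its ratio at 1.5 h was 0.99, which ends the call. Spi1, which encodes PU.1, was at 74.2, 80.1, 78.1 and 60.8 CPM, so that its log2 ratio at 5 h (-0.28) lay nearer to 0 than that of Spib (-1.24). Spic, the third gene of the PU.1 subgroup, was below 1 CPM in every library. Erg, known from blood stem cells and early B cell precursors, was at 319, 340, 176 and 181 CPM, with log2 ratios of -0.86 at 1.5 h and -0.81 at 5 h. Elk1 was at 0.34 at 0.5 h, and Elk3 was at -0.47 at 1.5 h. Both encode factors that act with the serum response factor. The list medians were 0.10, 0.057 and 0.040 at the 3 times.

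**Figure D4:**
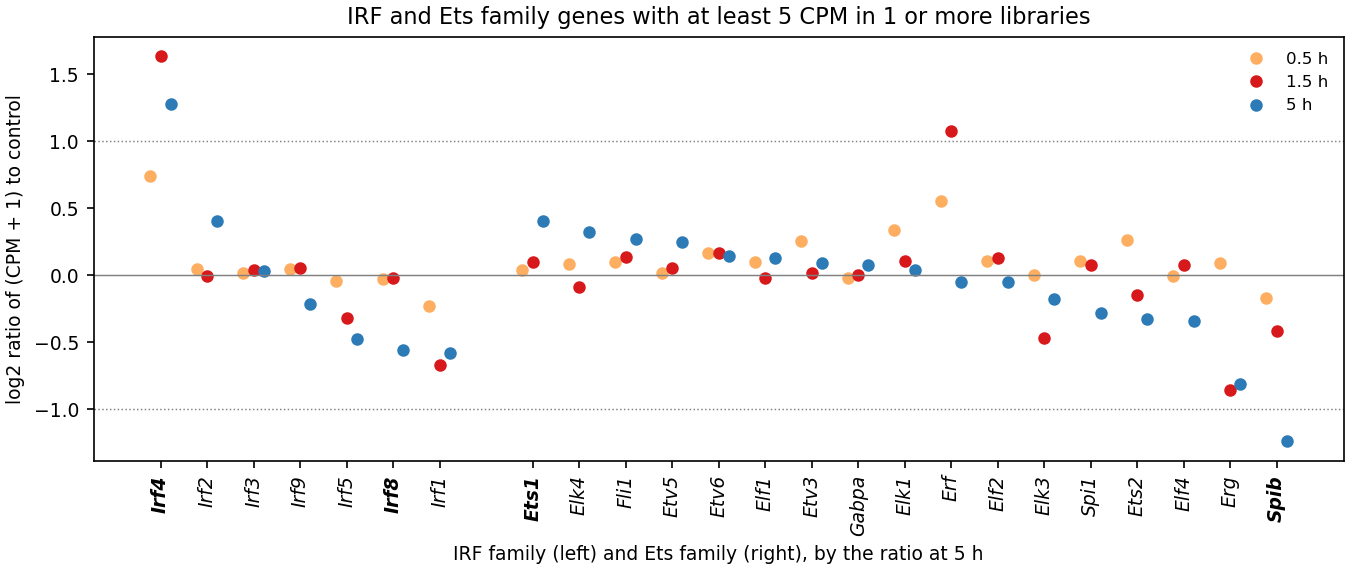
Log2 ratio of (CPM + 1) to control at 0.5, 1.5 and 5 h for the 7 IRF genes and 17 Ets genes with at least 5 CPM in 1 or more libraries, sorted by the ratio at 5 h within each family; dotted lines mark a 2-fold ratio. Irf4 at 1.5 and 5 h, Erf at 1.5 h and Spib at 5 h lie beyond the lines.

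Of the DNA-binding partners of IRF4, IRF8 and Ets1, 9 of 10 were tested. Jun and Junb, whose products pair with BATF in complexes that hold IRF4, were called higher at 0.5 h, with log2 ratios of 2.32 and 1.39. Junb was still called at 1.5 h (1.07), though not with a pseudocount of 5 CPM (0.99). Jund was at 0.67 and Pax5, a partner of Ets1 at the Cd79a promoter, at 0.52 at 0.5 h, and neither was called. The list median was 0.30 at 0.5 h and -0.10 at 5 h.

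Of 15 genes for regulators that act on Irf4 in lymphocytes, 14 were tested at 0.5 and 5 h and 13 at 1.5 h, and 0 were called at any time. At 1.5 h Nfkb2, an NF-kB subunit gene, was at 0.85, Nfatc1, a calcium-dependent factor gene, at 0.78 and Relb, which encodes a partner of the Nfkb2 product, at 0.68. Foxo1 was at -0.76 at the same time. The list medians were 0.063, 0.11 and -0.041.

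Of 12 genes known to respond to IRF4 or IRF8 in pre-B cells, 10 were found and 9 tested. Myc, which these factors are known to lower, was called higher at 0.5 h (log2 1.65) and at 1.5 h (1.58), and at 5 h it was at 0.22. Ikzf3, which encodes Aiolos, was called higher at 5 h at 1.0, just past the threshold. The call was lost without lane 2 (0.999) and in unique exon reads (0.997). Cdkn1b, the gene of the cell cycle inhibitor p27, was at -0.59 at 1.5 h and 0.12 at 5 h. Igkc, the kappa constant region, was at 11.3, 10.7, 9.47 and 7.90 CPM, -0.47 at 5 h. The list medians lay between -0.093 and -0.022.

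Of 14 genes known to respond to PU.1 or Spi-B in B cells, 12 were tested and 0 called at any time, with 8 of 12 below 0 at each time. Grap2, an adaptor gene, was at -0.86 and Cd22, the gene of an inhibitory receptor, at -0.74 at 5 h. Fcgr2b, the gene of the inhibitory Fc receptor, was at 0.76 at 5 h, and Tlr9, a receptor gene for DNA, at 0.90 at 1.5 h. The list medians were -0.031, -0.21 and -0.13, against -0.0032, -0.0050 and 0.0026 over all genes tested.

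Of 7 plasma cell genes 6 were found and 4 tested, and 0 were called. Prdm1, the master regulator of plasma cells, was under 1 CPM in every library. Xbp1 was at 0.29 and Ell2 at 0.30 at 1.5 h, Sdc1 was at -0.21 at 1.5 h and Mzb1 at -0.13 at 5 h.

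The libraries held between 30746189 and 34533362 exon reads, and lanes between 7631791 and 8709054. A count of 0 allows at most 3 counts, which is 0.0869 to 0.0976 CPM. The 16 sets of lanes of the 4 genes gave a lowest chi-square p of 0.0623 for their spread over lanes, before any adjustment. Over all genes with at least 20 reads, chi-square per degree of freedom was 1.32, 1.30, 1.27 and 1.24 in the 4 libraries. For Irf8 it was 2.44, 1.95, 1.34 and 0.575. Lanes thus spread somewhat more than counting error in total exon reads over all genes, and the counting intervals can be too narrow. In unique exon reads the value over all genes was 1.01, 0.995, 1.0 and 0.992, so this excess was absent there. All exon reads of Irf4 and Ets1 were uniquely placed. Blnk, the deleted gene, was at 3516 to 3806 CPM in every library. Its reads include those of the construct, so it does not check the deletion.

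Markers of pre-B cells were abundant as a sum, with 12 of 13 found and a summed level of 13154, 12468, 11552 and 11045 CPM. Ighm alone held 5997 CPM of this sum in control, while Rag1 and Rag2 stood at 6.63 and 7.27 CPM. Rag1 was called lower at 1.5 h (-1.56), but 7.78% of its reads were uniquely placed, and in unique exon reads it was at -0.52 and not called. Rag2 was at -0.80 at that time, with 20.1% of its reads uniquely placed. Cd24a was at 0.83 and Cd79a at -0.56 at 5 h. Since Irf8 and Spib also mark dendritic cells, and Irf8 myeloid cells, markers of these were summed too. The 8 dendritic markers summed to 9.82, 10.4, 8.70 and 5.59 CPM, 6 of them were under 1 CPM in every library, and the defining markers Siglech, Clec9a and Xcr1 were among these. Flt3 was above that, at 3.91, 4.46, 4.41 and 3.25 CPM. Itgax, at 5.39 CPM in control and 2.15 CPM at 5 h, was called lower at 5 h (-1.02), a call lost without lane 2 (-0.99), without lane 3 (-0.89) and in unique exon reads (-0.97). The 10 myeloid markers found summed to 73.0, 70.0, 62.1 and 39.8 CPM, nearly all of it Itgam (69.0 CPM in control, 35.9 CPM at 5 h, -0.92). Of the rest 7 were under 1 CPM in every library, among them Csf1r, and Ly6g was at 0. Lyz2 and Mpo were low but above 1 CPM, at 1.48 and 1.51 CPM in control and 1.07 and 1.01 CPM at 5 h. The sums for T and NK cells were 34.0 to 39.1 CPM, carried by Cd28 and Klrb1c, with Cd4 and Ncr1 at 0. Erythroid sums were 9.30 to 11.2 CPM, mostly Hbb-bt with 25.7% of its reads uniquely placed. Stromal sums were at most 0.490 CPM, with Cxcl12 and Kitl at 0. In bulk RNA, fewer cells of a type and less RNA per cell cannot be told apart.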

How the data were processed

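Poly(A) RNA of the 4 conditions was sequenced on an Illumina HiSeq instrument, with a TruSeq or a NEBNext kit, per the labels' protocols. The kit of each library is not stated. The submitters' processing notes name CASAVA 1.8.2 and build mm10, while aligner, counting program and strand were not given in the sources used here. Deposited tables hold read counts per gene and lane, not normalized, and the median coverage of each gene, per the file headers, and 0 columns were unmatched.

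Lanes were summed, and total exon reads were scaled to CPM. Reads outside exons are total gene reads minus total exon reads. Log2 ratios used a pseudocount of 1 CPM. Printed folds have none, with exact Clopper-Pearson 95% intervals. Without molecular identifiers, reads cannot be counted as independent molecules, and intervals and floors cover counting error only. The members, the 13 lists (130 of 135 genes found) and the rule for named genes (up to 4 per list with the largest ratios, and 5 nearest time courses per member) were chosen with earlier results of these data known. On simulated Poisson counts 50 of 50 genes were called at 3-fold and 0 of 50 at 1.5-fold. These counts held counting error alone, so they check the working of the 2-fold rule and not the spread between cultures. Alternatives used edgeR 4.0.16 TMM factors, DESeq2 1.42.0 size factors, pseudocounts, unique reads, total gene reads and lanes left out or as blocks. Python 3.11.15 and R 4.3.3 were used.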

Additional observations from a re-analysis of the deposited data

Results flagged for a closer look

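In 28 sets of 4 lanes (exon reads of 4 genes and reads outside exons of 3, in 4 conditions), 2 had a lane far from the others, and chance gives about 1 in 20. Ets1 exon reads at 5 h stood at 538 CPM in lane 1, with the next lane at 529 CPM. The spread of these 4 lanes was below counting error (chi-square per degree of freedom 0.317, chi-square p 0.813). Reads of Spib outside exons in control stood at 5.61 CPM in lane 2, with the next lane at 6.51 CPM. These are 48 and 56 reads.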

How the results depend on the processing

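Each of the 12 ratios of the 4 genes to control was recomputed under 12 alternatives, and 0 of 144 changed a call or turned the direction of a called ratio. In 135 the value stayed inside the counting interval. The other 9 were in total gene reads, where Irf4 at 0.5 h had a log2 ratio of 0.90 (0.74 in exon reads), and in unique exon-exon reads, an alternative added after seeing the data. In the latter Irf4 was at 0.81, 1.71 and 1.38 at 0.5, 1.5 and 5 h, Ets1 at 0.20, 0.17 and 0.46, and Spib at 0.080 at 0.5 h, against -0.17 in exon reads, and at -1.09 at 5 h. The cause was not tested. With a pseudocount of 5 CPM the counts of called genes were 19, 38 and 36 in place of 29, 81 and 70, as higher counts are needed to reach 2-fold. Among the calls it ended were those of Rag1 (-0.82), Itgax (-0.54), Tubb3 (-0.59) and Ikzf3 (0.98).

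Leaving out 1 lane at a time, Irf4 ranged from 0.70 to 0.76, from 1.62 to 1.66 and from 1.24 to 1.30 at the 3 times, Spib from -0.18 to -0.13, from -0.44 to -0.37 and from -1.26 to -1.23, Ets1 from 0.029 to 0.046, from 0.095 to 0.10 and from 0.39 to 0.41, and Irf8 from -0.093 to 0.046, from -0.089 to 0.056 and from -0.59 to -0.51. The counts of called genes ranged from 28 to 33, from 78 to 87 and from 67 to 80. With the lane as a replicate block the log2 ratio of Irf4 was 0.74, 1.64 and 1.28, and that of Spib at 5 h -1.24. Same-numbered lanes did not deviate together (correlation -0.053 to 0.055 over 24 pairs). Scaling to all reads outside exons put those of Ets1 at 1.23-fold at 5 h in place of 1.35-fold. Irf8 has no value in unique reads outside exons, which were 0. With 1 library per condition no difference between separate cultures can be judged.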
